A study of Homo sapiens with 24 samples.

Results

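The genes described here encode proteins of the actin thin filament and its smooth muscle companions: the tropomyosins TPM1, TPM2, TPM3 and TPM4, caldesmon (CALD1), transgelin (TAGLN), the calponins CNN1, CNN2 and CNN3, and smooth muscle actin (ACTA2). These 10 genes were picked by name and matched by Ensembl ID, and all 10 were found among the 57356 genes listed in all 3 count tables. RNA sequencing was done in SK-N-SH and SK-N-AS, human neuroblastoma lines, after knockdown of FAM167A, which the labels call DIORA1. The series title ties its protein to MRCK kinases, which act on the phosphorylation of myosin light chain, and to cell motility. In the siRNA experiment, 5 SK-N-SH libraries treated with a FAM167A siRNA pool were set against 5 treated with a non-targeting siRNA (NTC). In the CRISPRi experiments the cells of both groups carried SpCas9-KRAB, a Cas9 fused to a transcriptional repressor, with the guide sgDIORA1 in knockdown cells and sgGal4 in control cells. There were 3 knockdown and 3 control libraries in SK-N-SH and 4 knockdown and 4 control libraries in SK-N-AS. Nothing in the labels says whether the CRISPRi cells were clones or the replicates separate cultures, so p-values measure the spread between these libraries, which may be technical. The CRISPRi libraries were made with a stranded mRNA kit, and the siRNA libraries by poly-T selection with a protocol that covers stranded and unstranded kits.

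Tropomyosins are coiled-coil dimers that lie end to end along actin filaments and set which myosins and severing proteins can act on them. Caldesmon and calponins bind actin and restrain the myosin ATPase, transgelin binds and bundles actin, and smooth muscle actin is the actin of contractile smooth muscle and of myofibroblast stress fibres. Many of these genes are known targets of serum response factor (SRF), which binds the CArG box with myocardin-related cofactors that sense the pool of unpolymerised actin. In neuroblastoma lines, such genes are known as products of flat, substrate-adherent cells more than of neuroblast-like cells.

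The CArG boxes of these promoters are shown as a description. RefSeq promoter windows (GRCh38.p14, 250 bases before to 50 bases after an annotated start) were found for 9 of the 10 genes, 18 windows in all, and no window was matched for TAGLN. A CArG box was taken as CC, then 6 bases that are each A or T, then GG, a motif that reads the same in kind on both strands. It was found in 2 of the 18 windows, in CNN2 and in the TPM4 window with the lowest start coordinate, against 1.29% of the 35116 windows in the RefSeq table. A search that allowed 1 of the 6 central bases to be C or G, added after the strict search had been seen, found 2 further windows, in ACTA2 and in CALD1, against 6.94% of all windows. That CALD1 window (chr7:134711249-134711548) lies upstream of the gene as counted, which begins at 134744252. The remaining windows of CALD1 and ACTA2 held no box of either kind. Bases 200 to 51 before the start are given for CNN2 (chr19:1026408-1026557, plus strand), TPM4 (chr19:16067338-16067487, plus strand) and ACTA2 (chr10:88952824-88952973, minus strand), 5′ to 3′ on the gene's strand, with the boxes in capitals; both ACTA2 boxes are of the relaxed kind.
CNN2: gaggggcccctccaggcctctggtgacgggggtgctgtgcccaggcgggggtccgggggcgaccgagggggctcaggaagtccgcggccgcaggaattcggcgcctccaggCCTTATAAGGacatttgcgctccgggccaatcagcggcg
TPM4: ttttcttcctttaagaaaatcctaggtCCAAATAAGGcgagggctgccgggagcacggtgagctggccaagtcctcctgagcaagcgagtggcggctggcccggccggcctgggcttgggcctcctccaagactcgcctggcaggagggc
ACTA2: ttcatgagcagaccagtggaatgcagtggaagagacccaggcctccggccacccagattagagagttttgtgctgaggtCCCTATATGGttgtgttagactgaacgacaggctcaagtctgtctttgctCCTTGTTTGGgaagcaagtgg
No window of TPM1, TPM2, TPM3, CNN1 or CNN3 held a box of either kind. The TPM1 window (chr15:63048239-63048538) lay inside the gene as counted, which begins at 63042632. Both TPM3 windows (chr1:154178155-154178454 and chr1:154183169-154183468) lay inside the counted gene too, which begins at 154194648 on the minus strand. The sequence before those outermost starts of TPM1 and TPM3 was not searched. A match is a description of the letters, not a test of binding. Whether boxes go with the changes after knockdown was not tested.

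Libraries held 71464698 to 90255175 reads in the siRNA table, 11690515 to 21628076 in the SK-N-SH CRISPRi table and 29985858 to 104455853 in the SK-N-AS table. FAM167A itself stood at 63.4, 71.4, 57.7, 67.7 and 65.9 CPM in knockdown libraries and 187, 193, 168, 201 and 191 CPM in control libraries of the siRNA experiment, a fall of 2.88-fold (log2 -1.53 ± 0.05). CRISPRi left 2.62 to 3.79 CPM in SK-N-SH knockdown libraries, against 229.9 to 255 CPM in control libraries, and 9.17 to 10.95 CPM in SK-N-AS knockdown libraries, against 90.8 to 98.7 CPM in control libraries. The 3 experiments thus differed in line, in method and in how far FAM167A fell. Levels are given as CPM, a library's reads on a gene over its TMM-scaled total, and a gene rose or fell where edgeR's quasi-likelihood test gave a Benjamini-Hochberg adjusted p under 0.05 over all genes tested; the errors of log2 fold changes are standard errors (SE).

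In control cells the genes stood at very different levels in the 3 tables. Per length, as RPKM, which is CPM per kilobase of exon (mean ± SD), TAGLN averaged 0.551 ± 0.0925 in SK-N-AS CRISPRi controls (n = 4), 3.56 ± 0.199 in SK-N-SH siRNA controls (n = 5) and 228 ± 11.8 in SK-N-SH CRISPRi controls (n = 3). ACTA2 averaged 3.06 ± 0.467 RPKM in SK-N-AS, 5.94 ± 0.611 in the siRNA controls and 154 ± 11.3 in the SK-N-SH CRISPRi controls. CNN1, the calponin of differentiated smooth muscle, was the lowest of the 10 genes in each group, at 0.0288 ± 0.0206, 0.161 ± 0.0372 and 1.15 ± 0.111 RPKM in the same order. TAGLN and ACTA2 thus led the order per length in SK-N-SH CRISPRi controls whereas in the other controls ACTA2 stood above TAGLN and CNN1 alone, and TAGLN above CNN1 alone.

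In SK-N-SH CRISPRi controls the order per length ran TAGLN, ACTA2, CNN3, CALD1, TPM4, TPM3, TPM1, TPM2, CNN2 and CNN1, and no neighbouring genes overlapped in range. The siRNA controls had CNN3 at 95.1 ± 3.27 RPKM on top, followed by TPM4, TPM3, CALD1, TPM2, TPM1, CNN2, ACTA2, TAGLN and CNN1, with overlapping ranges for TPM4 and TPM3 and for CALD1 and TPM2. SK-N-AS controls had TPM3 and CNN3 on top at 89.1 ± 1.08 and 88.3 ± 3.404 RPKM, which overlapped, then TPM4, CALD1, TPM1 and CNN2, of which TPM1 and CNN2 overlapped, and then TPM2, ACTA2, TAGLN and CNN1. The non-muscle genes TPM3, TPM4 and CNN3 were therefore among the leading 3 in both of those control groups. Each length is that of all annotated exons of the gene merged, and isoforms of a gene, of which tropomyosin genes have muscle and non-muscle forms, were not counted apart.

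**Figure D1:**
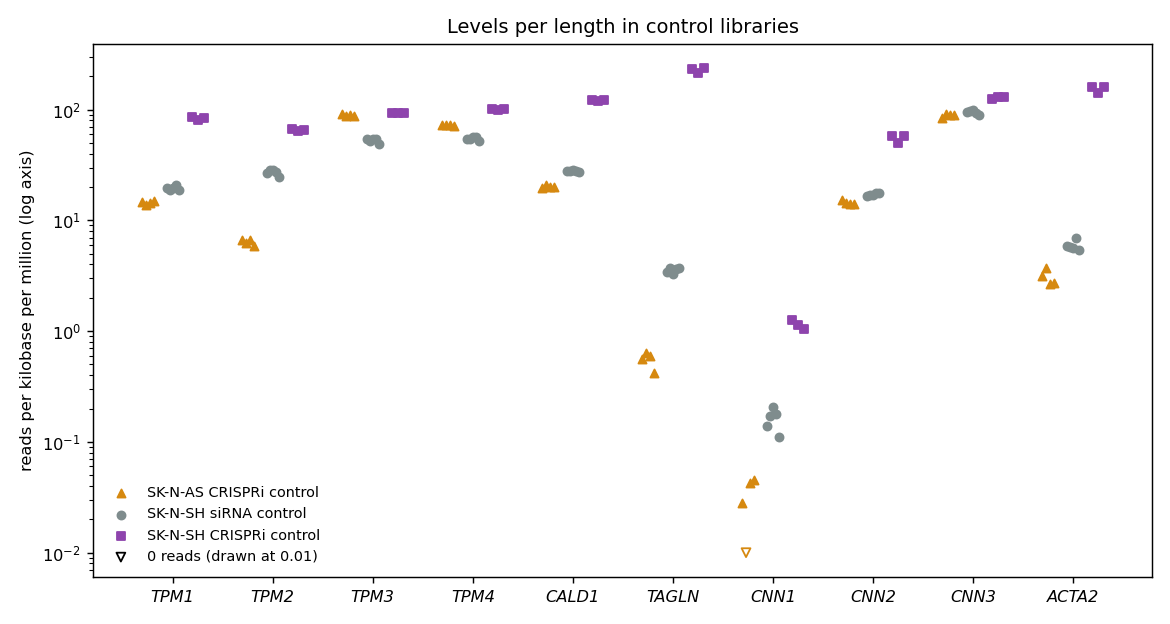
Levels per length (RPKM, CPM per kilobase of exon, log axis) of the 10 genes in the control libraries, 1 point for each library, with SK-N-AS CRISPRi controls, SK-N-SH siRNA controls and SK-N-SH CRISPRi controls side by side. TAGLN and ACTA2 spread most widely between the 3 kinds of control, while TPM3, TPM4 and CNN3 lie close together.

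All 10 genes were lower in SK-N-AS controls than in SK-N-SH CRISPRi controls, where 80.1% of 17729 genes tested differed, 39.2% higher and 40.9% lower. TAGLN was 424-fold lower (log2 fold change -8.73 ± 0.06, adjusted p = 2.29e-40), ACTA2 52.4-fold (-5.71 ± 0.09) and TPM2 10.5-fold (-3.39 ± 0.05). CNN1, CALD1, TPM1 and CNN2 lay at -5.08 ± 0.36, -2.62 ± 0.03, -2.54 ± 0.04 and -1.96 ± 0.05, and CNN3 and TPM4 at -0.56 ± 0.04 and -0.50 ± 0.03. CNN1 had 24 reads in SK-N-AS controls and 162 in SK-N-SH CRISPRi controls. It passed the filter on low counts only through the latter, so the filter itself favoured its call as lower. The smallest difference was that of TPM3 (log2 fold change -0.08 ± 0.03, adjusted p = 0.0233), whose call was lost with no filter on low counts (adjusted p = 0.944) and without SK-N-AS control library 2 or 4 (0.12 and 0.108) or SK-N-SH control library 2 or 3 (0.0743 and 0.109). The siRNA controls also had all 10 genes lower than the CRISPRi controls of the same line, where 68.5% of 21679 genes differed, 37.2% higher and 31.3% lower. There TAGLN was 69.1-fold lower (log2 fold change -6.11 ± 0.05, adjusted p = 9.77e-32) and ACTA2 was 27.96-fold lower (-4.80 ± 0.07). The other 8 genes ranged there from -2.92 ± 0.25 for CNN1 to -0.54 ± 0.04 for CNN3. The tables were counted separately, with 58735, 61541 and 78932 genes listed. Line, sequencing run and counting therefore cannot be told apart in the first difference, which has the same method and kit on both sides. Method, library preparation, run and counting cannot be told apart in the second, which is within 1 line.

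After knockdown, 9 of the 10 genes rose and none fell in SK-N-SH CRISPRi, where 55.8% of 15391 genes tested were called, 27.7% higher and 28% lower. All 10 had every knockdown library above every control library, against 30.2% of all genes above, 30.5% below and 60.7% in either direction. In SK-N-AS CRISPRi 5 genes rose and 2 fell of the 9 tested, where 30.6% of 19277 genes were called, 15.2% higher and 15.5% lower. Those 7 genes did not overlap in range either (29.1% of all genes), 5 with knockdown above (14.4%) and 2 with knockdown below (14.6%). With siRNA 2 genes rose and 1 fell of 10, where 9.53% of 21018 genes were called, 2.55% higher and 6.98% lower. Knockdown libraries lay above all controls for 3 genes (2.65% of all genes) and below for 1 (6.08%; 8.74% in either direction). TPM1 was the 1 gene that rose in all 3 experiments, and TPM2, TPM4, CALD1 and ACTA2 rose in both CRISPRi experiments. How many of all genes rose in several experiments was not counted, so these shared rises have no background share beside them. The median log2 fold change over all genes tested was 0.01 with siRNA, -0.01 in SK-N-SH CRISPRi and 0.00 in SK-N-AS CRISPRi.

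**Figure D2:**
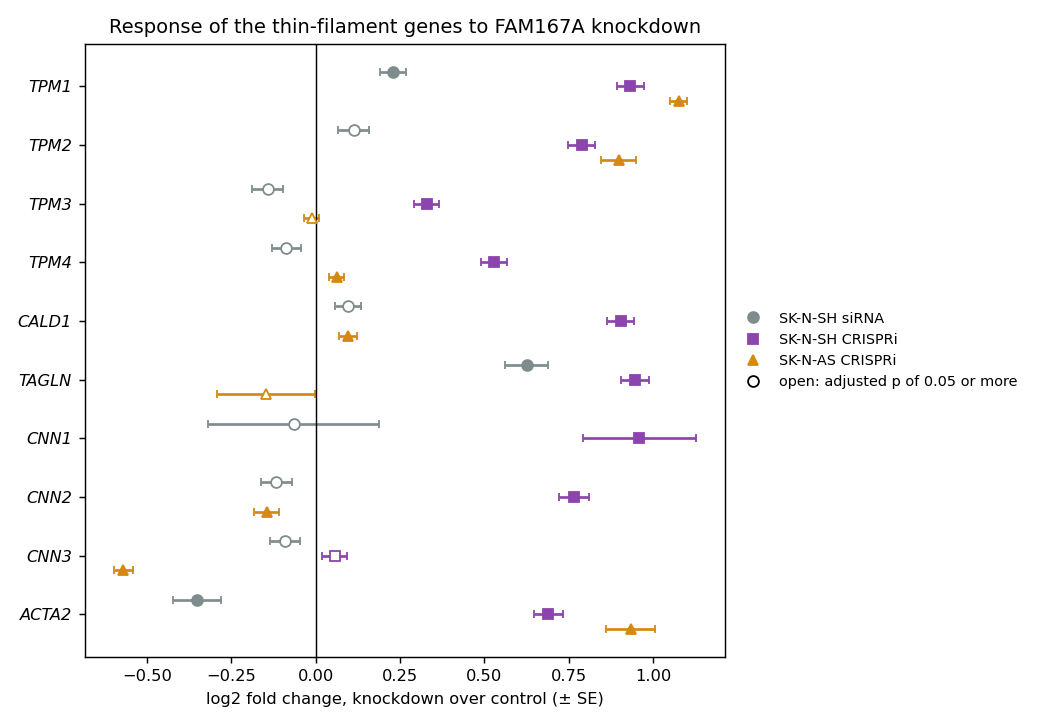
Log2 fold changes of the 10 genes, knockdown over control, with SE as bars, for SK-N-SH siRNA, SK-N-SH CRISPRi and SK-N-AS CRISPRi; filled symbols mark an adjusted p under 0.05. SK-N-SH CRISPRi points lie to the right of 0 for every gene, whereas SK-N-AS points reach 1.08 for TPM1 and -0.57 for CNN3, and siRNA points lie between -0.35 for ACTA2 and 0.63 for TAGLN. CNN1 was not tested in SK-N-AS.

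Among the tropomyosins, TPM1 (ENSG00000140416, chromosome 15, 63042632 to 63071915, plus strand) encodes alpha-tropomyosin, the source of striated and smooth muscle forms and of stress-fibre forms; coordinates here and below are GRCh38, as in the siRNA table. TPM1 stood at 389, 393, 396 and 390.5 CPM in knockdown libraries and 189, 179, 185 and 191 CPM in control libraries of SK-N-AS. In SK-N-SH CRISPRi the levels were 2051, 2025 and 2038 CPM in knockdown libraries and 1104, 1029.8 and 1070.0 CPM in control libraries, and with siRNA they were 288, 291, 297, 299 and 293 CPM in knockdown libraries and 251, 240.1, 252, 267 and 242 CPM in control libraries. Knockdown libraries were the higher ones throughout, with no overlap in any of the 3 experiments. TPM1 rose 2.11-fold in SK-N-AS (log2 fold change 1.08 ± 0.03, adjusted p = 1.12e-26), 1.91-fold in SK-N-SH CRISPRi (log2 fold change 0.93 ± 0.04, adjusted p = 1.95e-21) and 1.17-fold with siRNA (log2 fold change 0.23 ± 0.04, adjusted p = 0.000282).

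TPM2 (ENSG00000198467, chromosome 9, 35681992 to 35690121, minus strand) encodes beta-tropomyosin, a muscle form that fibroblasts also make. In SK-N-AS it stood at 38.4, 41.2, 38.7 and 34.9 CPM in knockdown libraries and 21.4, 20.1, 21.4 and 19.2 CPM in control libraries. In SK-N-SH CRISPRi it stood at 364, 356 and 384 CPM in knockdown libraries and 216, 209 and 214 CPM in control libraries, again with every knockdown library above every control library. TPM2 rose 1.86-fold (log2 fold change 0.90 ± 0.05, adjusted p = 2.93e-16) and 1.73-fold (log2 fold change 0.79 ± 0.04, adjusted p = 2.07e-19) in these lines. With siRNA the 2 groups overlapped, at 95.9, 86.6, 99.9, 98.3 and 93.6 CPM in knockdown libraries and 86.5, 92.1, 92.1, 88.1 and 79.8 CPM in control libraries, and the log2 fold change of 0.11 ± 0.05 did not pass the test (adjusted p = 0.149). It passed there when libraries were scaled by their totals alone (0.16 ± 0.05, adjusted p = 0.0375).

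TPM3 (ENSG00000143549, chromosome 1, 154155304 to 154194648, minus strand) and TPM4 (ENSG00000167460, chromosome 19, 16067021 to 16103005, plus strand) encode the tropomyosins that most non-muscle cells use, and TPM3 also the slow muscle form. TPM3 stood at 969, 981 and 989 CPM in knockdown libraries and 781, 777 and 781 CPM in control libraries of SK-N-SH CRISPRi, where TPM4 stood at 1229.6, 1271 and 1246 CPM in knockdown libraries and 867, 854 and 875 CPM in control libraries. Both rose there without overlap, TPM3 by 1.26-fold (log2 fold change 0.33 ± 0.04, adjusted p = 1.47e-09) and TPM4 by 1.44-fold (log2 fold change 0.53 ± 0.04, adjusted p = 1.01e-14), smaller changes than those of TPM1 and TPM2 in the same cells. In SK-N-AS, TPM3 was at 736, 742, 744 and 742 CPM in knockdown libraries and 759.9, 740.5, 747 and 741 CPM in control libraries, overlapping ranges with a log2 fold change of -0.01 ± 0.02 (95% interval -0.06 to 0.03, adjusted p = 0.726). TPM4 had 643, 643, 665 and 646 CPM in knockdown libraries and 623, 625, 622 and 618 CPM in control libraries of SK-N-AS, with no overlap and a rise of 1.04-fold (log2 fold change 0.06 ± 0.02, adjusted p = 0.0352). That call was lost with library totals as the scale (adjusted p = 0.0614), with no filter (0.218) and without knockdown library 3 or control library 2, 3 or 4 (0.12, 0.0547, 0.0677 and 0.0801). With siRNA neither gene passed, at -0.14 ± 0.05 for TPM3 (adjusted p = 0.06) and -0.09 ± 0.04 for TPM4 (adjusted p = 0.239), although TPM3 passed as lower by DESeq2 (adjusted p = 0.0375), with no filter (0.0291) and without knockdown library 1 (0.0139) or control library 5 (0.0201). Pseudogenes listed for TPM3 held 0.98 to 2.67% as many reads as TPM3 in the 3 tables, and its values are uncertain to the extent that reads were split with such copies.

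Shares within the tropomyosin family are given as a description, without a test. Per length, TPM1 made up 14.8 ± 0.0331% of the 4 genes' summed level in SK-N-AS knockdown libraries and 7.94 ± 0.230% in control libraries (SD, n = 4 each). TPM2 had 5.73 ± 0.367% and 3.48 ± 0.164% there, and the share of TPM3 was 42.9 ± 0.299% in knockdown and 49.0 ± 0.178% in control libraries. In SK-N-SH CRISPRi TPM1 held 29.7 ± 0.362% in knockdown libraries and 24.3 ± 0.496% in control libraries, and TPM3 21.9 ± 0.108% and 27.2 ± 0.338% (n = 3 each). In the siRNA experiment TPM1 took 15.1 ± 0.662% in knockdown libraries and 12.7 ± 0.403% in control libraries (n = 5 each). The TPM1 share was thus higher in knockdown libraries of each experiment. The summed level of the family was 206 ± 1.97 RPKM in knockdown and 182 ± 1.56 RPKM in control libraries of SK-N-AS, 533 ± 5.06 and 342 ± 5.14 RPKM in SK-N-SH CRISPRi, and 151 ± 4.94 and 154 ± 5.65 RPKM with siRNA.

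**Figure D3:**
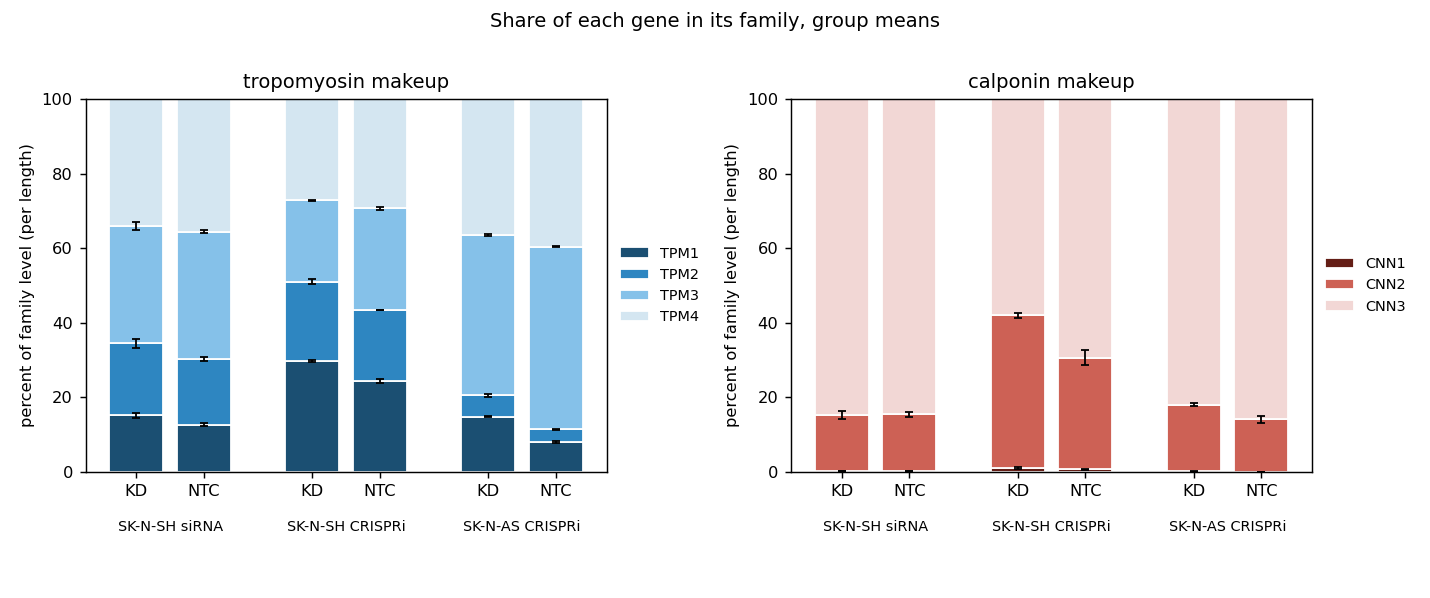
Share of each tropomyosin gene (left) and each calponin gene (right) in its family's summed level per length, in percent, as group means with SD bars at the upper edge of each segment, for knockdown (KD) and control (NTC) libraries. The TPM1 segment is larger in knockdown in all 3 experiments, and the CNN2 segment is larger in knockdown in both CRISPRi experiments.

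Caldesmon is encoded by CALD1 (ENSG00000122786, chromosome 7, 134744252 to 134970728, plus strand), and its smooth muscle and non-muscle forms tie actin, tropomyosin and myosin together. CALD1 stood at 2234, 2262 and 2189 CPM in knockdown libraries and 1202, 1179.6 and 1192 CPM in control libraries of SK-N-SH CRISPRi, 1.87-fold higher with no overlap (log2 fold change 0.90 ± 0.04, adjusted p = 3.07e-21). In SK-N-AS the values were 209, 206, 213 and 213 CPM in knockdown libraries and 192, 204, 196 and 197 CPM in control libraries, also without overlap but only 1.07-fold higher (log2 fold change 0.09 ± 0.03, adjusted p = 0.00589). With siRNA the levels were 305, 299, 285, 284 and 293 CPM in knockdown libraries and 272, 276, 281, 274 and 267 CPM in control libraries. All 5 knockdown libraries lay above all 5 controls there, yet the difference of 0.10 ± 0.04 did not pass (adjusted p = 0.128). It passed with library totals, with upper-quartile factors and by DESeq2 (adjusted p = 0.0102, 0.0326 and 0.0352).

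Transgelin, also named SM22-alpha, is an early smooth muscle marker encoded by TAGLN (ENSG00000149591, chromosome 11, 117199321 to 117204782, plus strand), a gene that the CRISPRi tables end at 117207464. TAGLN stood at 1732, 1721 and 1712 CPM in knockdown libraries and 913, 839.9 and 926 CPM in control libraries of SK-N-SH CRISPRi. The siRNA libraries had 19.3, 20.9, 20.5, 22.8 and 23.9 CPM in knockdown libraries and 13.4, 14.6, 12.9, 14.2 and 14.7 CPM in control libraries, and the SK-N-AS libraries 1.98, 1.92, 1.77 and 2.05 CPM in knockdown libraries and 2.18, 2.47, 2.34 and 1.64 CPM in control libraries. Knockdown and control ranges were apart in both SK-N-SH experiments and overlapped in SK-N-AS. TAGLN rose 1.93-fold in SK-N-SH CRISPRi (log2 fold change 0.95 ± 0.04, adjusted p = 2.61e-21) and 1.54-fold with siRNA (log2 fold change 0.63 ± 0.06, adjusted p = 2.48e-07), the gene's control level being 69.1-fold lower in the siRNA experiment. In SK-N-AS the log2 fold change was -0.15 ± 0.15 (95% interval -0.43 to 0.14, adjusted p = 0.499), at a level close to 2 CPM.

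Smooth muscle actin is encoded by ACTA2 (ENSG00000107796, chromosome 10, 88935074 to 88991339, minus strand). ACTA2 had 744, 739 and 733 CPM in knockdown libraries and 480.4, 419 and 474 CPM in control libraries of SK-N-SH CRISPRi, and 16.6, 17.2, 17.4 and 17.2 CPM in knockdown libraries and 9.301, 10.995, 7.997 and 8.13 CPM in control libraries of SK-N-AS. With siRNA it had 12.02, 14.3, 13.9, 15.04 and 13.9 CPM in knockdown libraries and 17.4, 17.2, 16.8, 20.8 and 16.1 CPM in control libraries. Knockdown libraries lay above all controls in both CRISPRi experiments and below all controls with siRNA. ACTA2 rose 1.91-fold in SK-N-AS (log2 fold change 0.93 ± 0.07, adjusted p = 7.85e-13) and 1.61-fold in SK-N-SH CRISPRi (log2 fold change 0.69 ± 0.04, adjusted p = 5.82e-16), and fell 1.28-fold with siRNA (log2 fold change -0.35 ± 0.07, adjusted p = 0.00184). Of the siRNA libraries, knockdown library 4 and control library 5 had 4.21 and 4.31% of their reads on 80 ribosomal protein genes, as had knockdown library 3 with 4.22%, against 4.67 to 5.23% in the other knockdown and 4.86 to 5.02% in the other control libraries. Without knockdown library 4 and control library 5 the siRNA calls among the 10 genes were the same 3, with ACTA2 at -0.42, TAGLN at 0.62 and TPM1 at 0.21. They were the same 3 also without knockdown library 3 in addition, an alternative added after the data were seen, with ACTA2 at -0.43, TAGLN at 0.64 and TPM1 at 0.20.

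TAGLN and ACTA2 overlap genes on the opposite strand, PCSK7 for TAGLN and STAMBPL1 and FAS for ACTA2, named here after their values were seen. No source used here states the strand setting of the counting, so reads from these overlaps cannot be told apart. PCSK7 held 6.47% as many reads as TAGLN in SK-N-SH CRISPRi, but 357% with siRNA and 2184% in SK-N-AS. STAMBPL1 and FAS held 9.24 and 8.72% as many reads as ACTA2 in SK-N-SH CRISPRi, 189 and 134% with siRNA, and 276 and 38.8% in SK-N-AS. PCSK7 fell with siRNA (-0.40 ± 0.06, adjusted p = 3.06e-05), where TAGLN rose, and stood at 0.04 ± 0.04 in SK-N-AS (adjusted p = 0.519) and 0.10 ± 0.05 in SK-N-SH CRISPRi (adjusted p = 0.0802). In SK-N-AS a further opposite-strand gene (ENSG00000304501) held 62.2% as many reads as TAGLN. FAS fell with siRNA (-0.40 ± 0.07, adjusted p = 0.00025) and rose in SK-N-AS (0.51 ± 0.11, adjusted p = 0.000213) and in SK-N-SH CRISPRi (0.38 ± 0.06, adjusted p = 6.5e-07), the same directions as ACTA2; its part in the ACTA2 values was not tested. STAMBPL1 stood at 0.08 ± 0.05 with siRNA, -0.06 ± 0.04 in SK-N-AS and 0.27 ± 0.05 in SK-N-SH CRISPRi (adjusted p = 0.396, 0.337 and 5.26e-05).

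The calponins split. CNN1 (ENSG00000130176, chromosome 19, 11538717 to 11550323, plus strand) encodes the smooth muscle calponin and was at 5.17, 7.96 and 5.94 CPM in knockdown libraries and 3.64, 3.299 and 2.998 CPM in control libraries of SK-N-SH CRISPRi, 290 and 162 reads in all. It rose 1.94-fold there without overlap (log2 fold change 0.96 ± 0.17, adjusted p = 6.94e-06). With siRNA CNN1 had 0.396, 0.4221, 0.477, 0.528 and 0.411 CPM in knockdown libraries and 0.3995, 0.494, 0.6001, 0.513 and 0.322 CPM in control libraries, overlapping ranges with a log2 fold change of -0.07 ± 0.25 (adjusted p = 0.92). SK-N-AS held 40 CNN1 reads in knockdown and 24 in control libraries, too few to be tested, and knockdown library 3 and control library 2 had 0 reads, which allows up to 0.109 and 0.1999 CPM by the limit of 3 fragments of 2 reads each, for counting error only. Of counts from 1 to 49, between 10.67 and 14.8% were odd in SK-N-AS libraries, 39.7 to 42.9% with siRNA and 59.15 to 59.97% in SK-N-SH CRISPRi. Most low counts in SK-N-AS were thus even, and its reads are not independent molecules. With siRNA even low counts were also the more common, so its reads cannot be taken as independent molecules either.

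CNN2 (ENSG00000064666, chromosome 19, 1026581 to 1039068, plus strand) encodes the calponin of non-muscle cells that respond to mechanical tension. CNN2 stood at 347, 337 and 343 CPM in knockdown libraries and 209, 183 and 211 CPM in control libraries of SK-N-SH CRISPRi. In SK-N-AS it stood at 48.5, 47.3, 47.2 and 46.9 CPM in knockdown libraries and 55.5, 52.3, 51.6 and 50.8 CPM in control libraries. The ranges were apart in both, with knockdown above in SK-N-SH and below in SK-N-AS. CNN2 rose 1.70-fold in SK-N-SH CRISPRi (log2 fold change 0.77 ± 0.04, adjusted p = 1.19e-16) and fell 1.11-fold in SK-N-AS (log2 fold change -0.15 ± 0.04, adjusted p = 0.00287). With siRNA its levels overlapped, at 53.7, 63.5, 55.8, 56.04 and 59.9 CPM in knockdown libraries and 60.7, 62.02, 62.2, 64.3 and 63.8 CPM in control libraries, and -0.12 ± 0.05 did not pass (adjusted p = 0.124), although it did without knockdown library 2, the highest of its group (-0.15 ± 0.04, adjusted p = 0.0323).

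CNN3 (ENSG00000117519, chromosome 1, 94896949 to 94927278, minus strand) encodes acidic calponin, which is made in brain and many non-muscle cells. Its levels in SK-N-AS were 172, 164, 169 and 170.2 CPM in knockdown libraries and 237, 259, 254 and 253 CPM in control libraries. The knockdown range lay wholly below the control range, a fall of 1.48-fold (log2 fold change -0.57 ± 0.03, adjusted p = 9.78e-18). In SK-N-SH CRISPRi CNN3 stood at 379.7, 382 and 372 CPM in knockdown libraries and 351, 371 and 368 CPM in control libraries, narrowly without overlap. The log2 fold change of 0.06 ± 0.04 (95% interval -0.02 to 0.13) did not pass (adjusted p = 0.221), and it was -0.07 ± 0.04 when libraries were scaled by totals alone, which moved the median of all genes by -0.13. With siRNA the ranges overlapped, at 269, 254, 247, 232 and 265 CPM in knockdown libraries and 271, 276, 280.1, 267 and 256 CPM in control libraries (log2 fold change -0.09 ± 0.04, adjusted p = 0.233). Per length, CNN2 made up 41.0 ± 0.658% of the 3 calponins in SK-N-SH CRISPRi knockdown libraries and 29.9 ± 2.06% in control libraries (n = 3 each). CNN2 made up 17.97 ± 0.292% in SK-N-AS knockdown libraries and 14.0 ± 0.925% in control libraries (n = 4 each), and 15.1 ± 1.09% and 15.3 ± 0.677% with siRNA (n = 5 each).

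**Figure D4:**
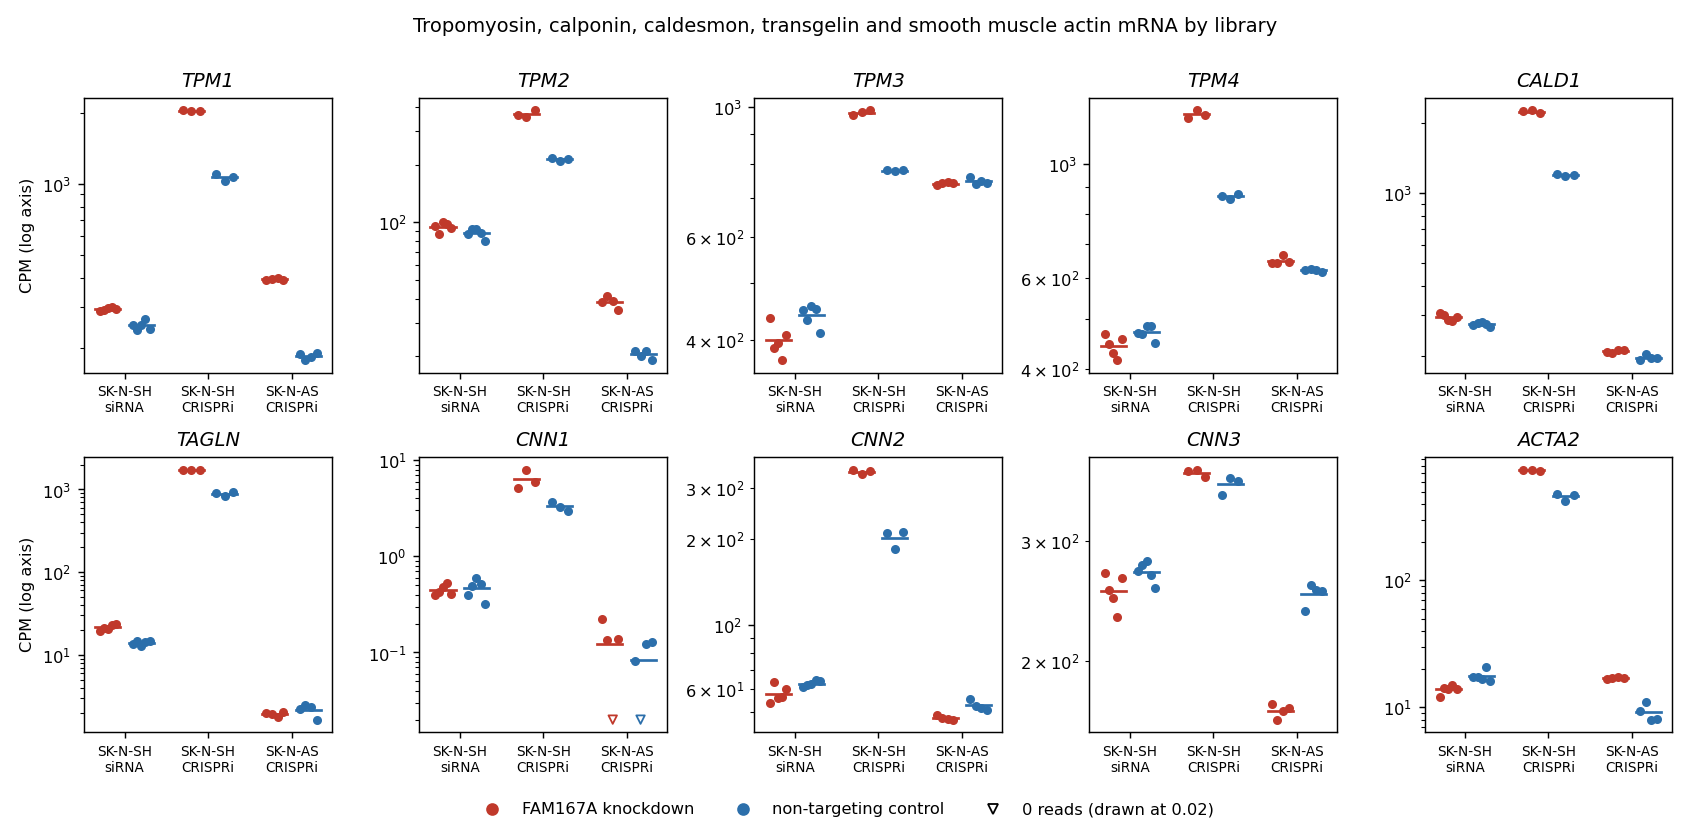
CPM of each gene in every library (log axes that differ between panels), with knockdown left of control in each experiment, points for libraries and lines for group means; open triangles mark libraries with 0 reads. Knockdown points of SK-N-SH CRISPRi lie above the controls in all 10 panels, by a narrow margin for CNN3, and the siRNA and SK-N-AS points of TAGLN and ACTA2 lie far below those of SK-N-SH CRISPRi.

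The responses were then compared between experiments, each against its own controls, by the interaction in edgeR's quasi-likelihood test. In SK-N-SH, 9 of the 10 genes responded more upward to CRISPRi than to siRNA, where 31.4% of 23287 genes differed, 15.1% upward and 16.4% downward. The differences in log2 response, CRISPRi minus siRNA, were 1.03 ± 0.09 for ACTA2, 1.01 ± 0.32 for CNN1, 0.87 ± 0.07 for CNN2 and 0.80 ± 0.06 for CALD1 (adjusted p = 4.84e-10, 0.0132, 3.77e-12 and 9.11e-13). TPM1, TPM2, TPM4 and TPM3 followed at 0.69 ± 0.06, 0.67 ± 0.07, 0.61 ± 0.07 and 0.46 ± 0.07. TAGLN, which rose in both, differed by 0.31 ± 0.08 (adjusted p = 0.00215), a call lost with library totals as the scale (adjusted p = 0.189). CNN1 lost its call without SK-N-SH CRISPRi knockdown library 2 (adjusted p = 0.0721). CNN3 differed by 0.14 ± 0.07 and did not pass (adjusted p = 0.143; -0.03 ± 0.06 with library totals), although it passed without siRNA knockdown library 1 or control library 5 (adjusted p = 0.0384 and 0.0484). CRISPRi lowered FAM167A further than siRNA did, by -4.72 ± 0.13 on the same scale.

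Between the lines under CRISPRi, SK-N-AS minus SK-N-SH, 6 of the genes were lower in response and 2 higher, where 30.7% of 19862 genes differed, 16% lower and 14.7% higher. TAGLN differed by -1.10 ± 0.10, CNN2 by -0.93 ± 0.06, CALD1 by -0.82 ± 0.04 and CNN3 by -0.64 ± 0.05 (adjusted p = 1.61e-12, 1.36e-18, 1.03e-21 and 1.23e-15). TPM4 and TPM3 differed by -0.48 ± 0.04 and -0.36 ± 0.04. TPM1 responded slightly more in SK-N-AS (0.13 ± 0.04, adjusted p = 0.0168), a call lost without SK-N-SH control library 1 or 3 (adjusted p = 0.0514 and 0.0502). ACTA2 was also higher (0.24 ± 0.08, adjusted p = 0.0298). It did not pass by DESeq2 (adjusted p = 0.14), nor without SK-N-AS knockdown library 2, 3 or 4 or control library 3 or 4, nor without SK-N-SH knockdown library 1, 2 or 3 or control library 1 or 3 (adjusted p = 0.0514 to 0.0805). TPM2 did not pass (0.09 ± 0.06, 95% interval -0.03 to 0.22, adjusted p = 0.273), and passed with library totals as the scale (0.23 ± 0.06, adjusted p = 0.00258). CNN1 did not pass either (-0.51 ± 0.59, 95% interval -1.67 to 0.65, adjusted p = 0.59). FAM167A was lowered less in SK-N-AS, by 3.00 ± 0.12. The 2 tests share the SK-N-SH CRISPRi libraries, and the extent of the knockdown cannot be told apart from the method in one and from the line in the other.

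Other actins and partners of the thin filament moved in both directions in SK-N-SH CRISPRi, 11 up and 4 down of 17 tested, with a median log2 fold change of 0.29. ACTG2, the enteric smooth muscle actin, rose (1.64 ± 0.17), as did the leiomodin gene LMOD1 (1.23 ± 0.05), whose product nucleates actin, and NEXN (0.91 ± 0.06), whose product binds actin filaments; TMOD1, a cap of slow filament ends that binds tropomyosin, fell (-1.71 ± 0.05). ACTG2 averaged only 8.69 CPM in knockdown and 2.65 CPM in control libraries of SK-N-SH CRISPRi. ACTG2, LMOD1, SMTN and SYNPO2 are also in the smooth muscle list. Over all genes 27.7% rose and 28% fell there, with a median of -0.01. The shares that rose and fell were 15.2% and 15.5% in SK-N-AS, and 2.55% and 6.98% with siRNA. In SK-N-AS 3 rose and 4 fell of 15 (median -0.01), with 2 to 5 called higher when 1 library was left out, the count moving beyond 1.5 times without knockdown library 2 or control library 1. TMOD2 was up (0.43 ± 0.04) and TMOD1 (-1.14 ± 0.04) and the synaptopodin gene SYNPO (-0.41 ± 0.03) down. With siRNA 3 rose and 1 fell of 16 (median 0.01), among them NEXN (0.36 ± 0.10), LMOD1 (0.39 ± 0.11) and SYNPO2 (0.13 ± 0.04), calls lost in 2, 4 and 8 of the 10 fits that each left out a library (0.30 to 0.42, 0.32 to 0.44 and 0.12 to 0.15). The gene that fell was CAPZB (-0.14 ± 0.04), which codes for a subunit of the actin capping protein and is named after its values were seen, and no gene of the list was called lower in 8 of those 10 fits. TMOD1 thus fell where TPM1 rose in both CRISPRi experiments, and with siRNA it did not pass (0.07 ± 0.04, adjusted p = 0.337).

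Of SRF, its cofactors and actin-linked regulators, 8 of 12 rose and 1 fell in SK-N-SH CRISPRi (median 0.46). They include FHL1 (0.89 ± 0.04) and CSRP1 (0.71 ± 0.04), LIM-domain proteins of muscle and stress fibres, and palladin, PALLD (0.64 ± 0.04). Among all genes tested 27.7% rose and 28% fell there, 15.2% and 15.5% in SK-N-AS, and 2.55% and 6.98% with siRNA. In SK-N-AS 3 rose and 2 fell (median 0.06), again with CSRP1 (0.56 ± 0.05) and FHL1 (0.39 ± 0.03) up and the formin gene FHOD1 (-0.26 ± 0.03) down. With siRNA CSRP2 rose (0.35 ± 0.06) and PRKG1, a kinase of smooth muscle relaxation, fell (-0.25 ± 0.07), of 12 tested; the call of PRKG1 was lost in 4 of the 10 fits that each left out a library (-0.29 to -0.21). SRF mRNA itself, named after its values were seen, fell in SK-N-AS (-0.13 ± 0.03, adjusted p = 0.00236) and stood at 0.08 ± 0.05 in SK-N-SH CRISPRi and -0.11 ± 0.04 with siRNA (adjusted p = 0.183 and 0.143). MYOCD, the muscle-restricted cofactor myocardin, had no reads in 5 of the 6 groups and averaged under 1 CPM in the sixth. MYOCD is also in the smooth muscle list.

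Actin crosslinkers and stress-fibre proteins rose in SK-N-SH CRISPRi, 15 of 17 with 1 down (median 0.61), led by vinculin, VCL (0.98 ± 0.04), and DSTN (0.68 ± 0.04), with the testin gene TES down (-0.95 ± 0.06). In SK-N-AS 5 rose and 7 fell (median -0.02), with VCL up (0.39 ± 0.03) and TES (-1.01 ± 0.08) and PDLIM5 (-0.34 ± 0.03) down. With siRNA 1 rose and 2 fell of 17 (median -0.02), namely LIMA1 (0.13 ± 0.04), zyxin, ZYX (-0.27 ± 0.05), and alpha-actinin, ACTN1 (-0.16 ± 0.04); the call of LIMA1 was lost in 8 of the 10 fits without a library (0.11 to 0.15) and that of ACTN1 without control library 2 or 4 (-0.19 to -0.14). VCL rose and TES fell in both CRISPRi experiments, as TPM1 rose in both. Among all genes tested 27.7% rose and 28% fell in SK-N-SH CRISPRi, 15.2% and 15.5% in SK-N-AS, and 2.55% and 6.98% with siRNA.

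**Figure D5:**
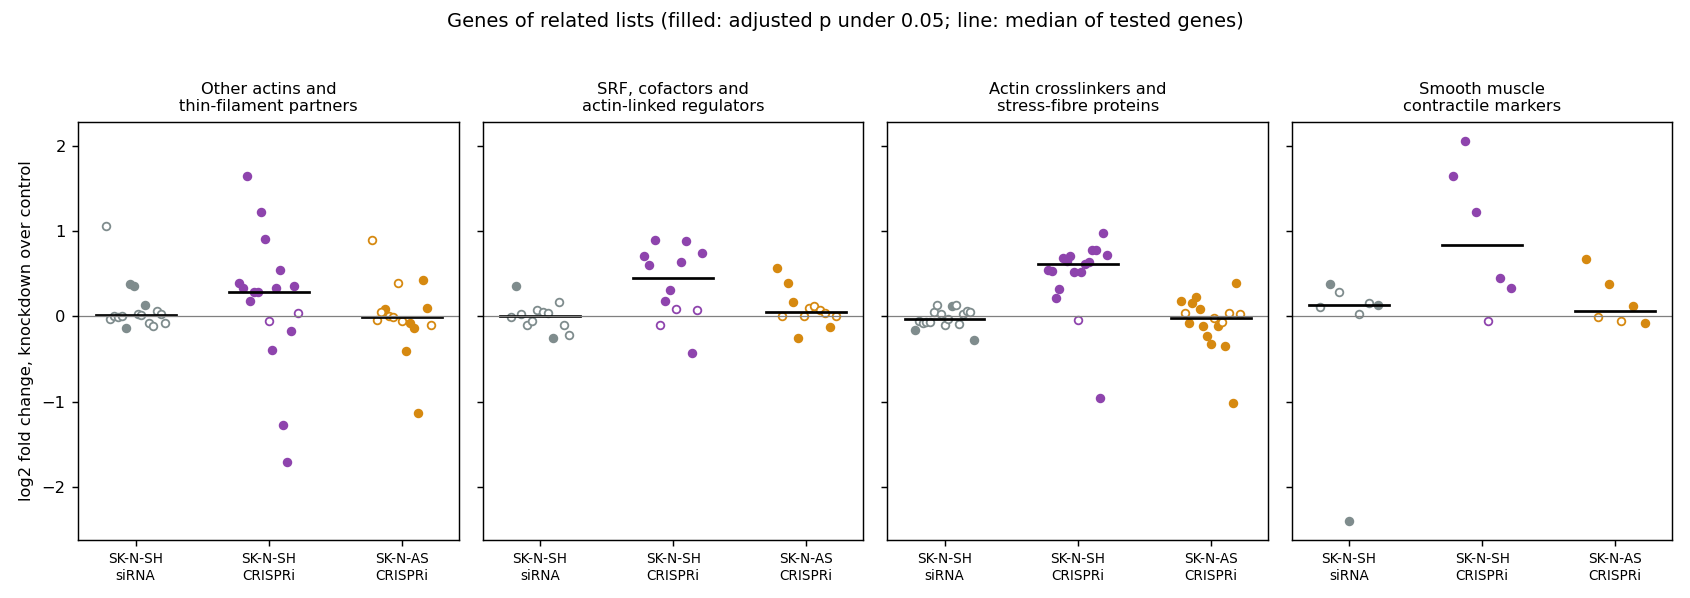
Log2 fold changes, knockdown over control, of the tested genes of 4 related lists in SK-N-SH siRNA, SK-N-SH CRISPRi and SK-N-AS CRISPRi; filled points have an adjusted p under 0.05 and lines are medians. Medians of the SK-N-SH CRISPRi columns lie at 0.29, 0.46, 0.61 and 0.84, and those of the other columns between -0.02 and 0.13.

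Markers of cell types moved with these genes in SK-N-SH CRISPRi, where 27.7% of all genes tested rose and 28% fell. In SK-N-SH CRISPRi 15 of 17 adrenergic neuroblastoma markers fell and 2 rose, with GATA2 at -2.08 ± 0.04 and DBH at -1.62 ± 0.04, and their summed level was 2022 to 2165 CPM in knockdown and 4190 to 4534 CPM in control libraries. Of 13 fibroblast and mesenchymal markers 12 rose and 1 fell, summing to 26466 to 27608 CPM in knockdown and 12095 to 13706 CPM in control libraries, with COL3A1 at 1.51 ± 0.04. Of 6 tested smooth muscle markers 5 rose and none fell, 489 to 512 CPM in knockdown and 351 to 359.7 CPM in control libraries. LDB3, at 2.06 ± 0.22, was a low gene that averaged 5.23 CPM in knockdown and 1.32 CPM in control libraries. The defining smooth muscle genes MYH11 and DES averaged under 1 CPM in each of the 6 groups. Of the 12 listed smooth muscle markers, 6 to 8 averaged under 1 CPM in each group. The part of these marker changes in the rise of the thin-filament genes was not tested, and in bulk RNA fewer cells of a type and less RNA per cell cannot be told apart.

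The other experiments gave other marker values. Of all genes tested 15.2% rose and 15.5% fell in SK-N-AS, and 2.55% rose and 6.98% fell with siRNA. In SK-N-AS the adrenergic sum was 3949 to 4017 CPM in knockdown and 4204 to 4336 CPM in control libraries (3 up and 10 down of 18), the mesenchymal sum 6532 to 6647 and 5812 to 5940.2 CPM (6 up and 5 down of 12), and the smooth muscle sum 954 to 1000.1 and 995 to 1027 CPM (3 up and 1 down of 6). SYNPO2 alone averaged 824 CPM in knockdown and 872 CPM in control libraries of SK-N-AS, most of the smooth muscle sum, and 8 of the 12 listed genes averaged under 1 CPM. With siRNA the adrenergic sum was 6338 to 7193 and 6777 to 7263 CPM (3 up and 1 down of 17), the mesenchymal sum 6066 to 7821 and 6698 to 7004 CPM (4 up and 3 down of 13), and the smooth muscle sum 290.5 to 312 and 269.8 to 300.0 CPM (2 up and 1 down of 7). When 1 siRNA library was left out, 1 to 3 adrenergic genes were called higher, with HAND1 lost in 6 of the 10 fits (0.13 to 0.18), and 0 to 3 smooth muscle genes. Of the mesenchymal markers VIM (-0.41 ± 0.05), PRRX1 (-0.27 ± 0.04) and POSTN (-0.31 ± 0.05) fell with siRNA, while 4 others rose. In SK-N-AS PDGFRA (0.83 ± 0.03) and COL3A1 (0.47 ± 0.02) rose and FAP fell (-0.56 ± 0.03). All 18 adrenergic markers had reads in each group, and TH was the 1 marker that averaged under 1 CPM. Schwann cell and glia markers summed to at most 5.63 CPM in any library, with FOXD3 without reads in all 6 groups. Of the epithelial, endothelial and blood markers 2 rose and 1 fell of 4 tested in SK-N-SH CRISPRi (159.8 to 167 CPM in knockdown and 82.2 to 89.5 CPM in control libraries), with the keratin genes KRT8 (1.25 ± 0.10) and KRT18 (0.94 ± 0.04) up. The fall was that of VWF at 0.741 CPM in knockdown and 1.60 CPM in control libraries, lost in 4 of 6 fits that each left out a library (-1.45 to -0.63). In SK-N-AS 1 rose and 1 fell of 7 (559 to 582 CPM in knockdown and 636 to 674 CPM in control libraries). Most of that sum was PTPRC, the leukocyte gene of CD45, which averaged 451 CPM in knockdown and 542 CPM in control libraries (-0.27 ± 0.03, adjusted p = 5.9e-10), followed by KRT18 at 97.4 and 95.97 CPM. With siRNA 1 rose and 1 fell of 6 (29.1 to 36.9 CPM in knockdown and 26.3 to 30.5 CPM in control libraries).

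Likeness across all 24 libraries, which fall into 6 groups and 3 tables, was taken as Pearson's r of log2 CPM. A small constant was added to each CPM first, which lessens differences at low levels. The genes most like TAGLN among 13943 compared were DHRS3, ITGBL1, NEK7, LMO7 and ABCA8, with r between 0.990 and 0.995. The genes most like ACTA2 were ST3GAL5, TIMP2, TLL1, BACE1 and PRAG1, with r between 0.989 and 0.993. The libraries share tables that differ in level, so these values are given as a description.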

How the data were processed

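RNA from 24 libraries was sequenced, and the authors deposited 1 table of raw read counts per gene for each experiment, as integers with no normalization, per the file headers. FastQC 0.11.8, STAR 2.6.1d, featureCounts 1.5.1, bcl2fastq 2.20 and GRCh38 are named in the submitters' processing notes. Which tool served which experiment, the annotation release and the strand option are not stated. A read that fits several genes or both strands of an overlap may therefore have been counted differently between the tables.

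Each table was fitted with edgeR 4.0.16 (quasi-likelihood test, limma 3.58.1, R 4.3.3) on genes passing filterByExpr (minimum count 10, total 15), with TMM scaling and Benjamini-Hochberg adjustment over all genes tested. Knockdown was set against the non-targeting controls of the same table. Differences in response were interaction terms over tables joined by Ensembl ID, and control levels were compared the same way. RPKM used the exon lengths of the siRNA table. Each SE was derived from the log2 fold change and the F statistic of edgeR's test, which gives no SE itself. The 95% intervals are the estimate ± 1.96 SE, a normal approximation that can be too narrow with so few libraries. The scripts were tested on simulated counts. Alternatives were other scalings and filters, DESeq2 1.42.0, a replicate block and leaving out each library.

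The 10 genes and the lists were chosen with earlier results of these data known. Named list genes are, per list and experiment, up to 3 called genes with the smallest adjusted p; most-like genes are the 5 with the highest Pearson's r to TAGLN or ACTA2. Promoter sequences are RefSeq's (GRCh38.p14).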

Additional observations from a re-analysis of the deposited data

Results flagged for a closer look

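Both comparisons of responses gave differences that passed the test of the difference itself, edgeR's quasi-likelihood interaction with Benjamini-Hochberg adjustment. For CRISPRi minus siRNA in SK-N-SH, the log2 differences were 0.69 for TPM1, 0.67 for TPM2, 0.46 for TPM3, 0.61 for TPM4, 0.80 for CALD1, 0.31 for TAGLN, 1.008 for CNN1, 0.87 for CNN2 and 1.03 for ACTA2, and -4.72 for FAM167A. For SK-N-AS minus SK-N-SH under CRISPRi, they were 0.13 for TPM1, 0.24 for ACTA2, -0.36 for TPM3, -0.48 for TPM4, -0.82 for CALD1, -1.10 for TAGLN, -0.93 for CNN2 and -0.64 for CNN3, and 3.00 for FAM167A.

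In 2 of 44 groups of 4 or 5 libraries, 1 library stood far from the others by Dixon's test, which chance gives in about 1 of 20 groups. Control library 4 of the siRNA experiment had 20.8 CPM of ACTA2, with a gap of 0.717 of the group's range to the next library. SK-N-AS knockdown library 3 had 665 CPM of TPM4, with a gap of 0.888 of the range. Without that library the TPM4 call in SK-N-AS was lost (adjusted p = 0.12).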

How the results depend on the processing

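Of 1304 tests of the 10 genes and FAM167A under an alternative setting, 1263 kept their direction and their side of the threshold, 26 lost their call, 12 gained one and 3 turned direction. The 3 turns were CNN1 with siRNA without control library 3, and CNN3 in SK-N-SH CRISPRi (-0.0732) and for CRISPRi minus siRNA (-0.0298) when libraries were scaled by their totals alone. That scaling also turned PCSK7, which is not among the 10 genes, in SK-N-SH CRISPRi (-0.0290). Library totals moved the median of all genes by -0.13 in SK-N-SH CRISPRi, by -0.16 for CRISPRi minus siRNA and by 0.14 for SK-N-AS minus SK-N-SH. With them, 2791 genes were called higher in SK-N-SH CRISPRi and 1315 with siRNA, 2243 higher and 6080 lower for CRISPRi minus siRNA, and 4932 higher and 1813 lower for SK-N-AS minus SK-N-SH, and 4 of the 10 genes were called higher with siRNA. Genes called higher with siRNA numbered 933 with upper-quartile factors and 813 by DESeq2. Of the 10 genes, 2 were called lower with siRNA by DESeq2 and 2 with no filter, and 1 was higher in SK-N-AS minus SK-N-SH by DESeq2. Without a filter, the median of siRNA over CRISPRi controls moved by 0.34.

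Leaving out each library gave 282 to 774 genes called higher with siRNA, 1 to 2 of the 10 genes called lower with siRNA, 0 to 2 called higher for SK-N-AS minus SK-N-SH, and -0.176 to 0.0432 for CNN1 with siRNA, which turned without control library 3. Replicate numbers did not pair the libraries, with correlations of deviations of same-numbered libraries between -0.261 and 0.072. With the replicate block 322 genes were called higher with siRNA, against 536 without it. The cause of these changes was not tested.

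CNN1 is limited by depth, at under 1 CPM outside SK-N-SH CRISPRi. Gene-level counts do not separate tropomyosin or caldesmon isoforms, and protein was not measured. Levels across tables carry run and annotation together with line, method or library preparation, depending on which tables are compared.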
